A study of Mus musculus with 4 samples.

Results

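RNA-seq of tibial bone marrow was examined for 10 genes of the TNF and NF-kB inflammatory response, chosen by name from the 55401 genes of the transcript tables: Tnf, Tnfaip3, Nfkbia, Nfkbiz, Nfkb1, Relb, Ptgs2, Il6, Icam1 and Clec4e. All 10 were found under these symbols, and the FPKM of their transcripts, a read density normalized for transcript length and library depth, were summed to 1 value per gene and library. The mice were wild-type C57/B6 males that were started on a high-fat diet (HFD) at 8 weeks of age. All mice were first made obese on HFD and only then divided at random. From then on, the Ob group (n = 2 libraries) stayed on HFD without exercise. The Ob + Exe group (n = 2 libraries) received HFD plus 12 weeks of moderate treadmill running. Both groups were obese, no lean group was analysed here, and the sources do not say whether a library was 1 mouse or a pool, so p values measure only the spread between these 4 libraries. The question was whether exercise changed these inflammatory genes in the marrow of obese mice.

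NF-kB is a family of dimeric transcription factors that is held in the cytoplasm by inhibitory IkB proteins. Signals such as TNF binding to its receptor, or a microbial ligand binding to a pattern receptor, activate the IKK kinases, which mark IkB for degradation and release NF-kB to the nucleus. Its target genes include cytokines, adhesion molecules and also its own inhibitors, so the response is built with feedback. In marrow, neutrophils, monocytes and macrophages are the main cells that carry out this response, and TNF is also known as a promoter of osteoclast formation.

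A single gene of the 10, Clec4e, passed the thresholds used for a call, and it was higher in Ob + Exe. Clec4e encodes Mincle, a C-type lectin receptor of myeloid cells, and its FPKM was 11.0 ± 1.34 (SD, n = 2) in Ob and 25.1 ± 12.2 (n = 2) in Ob + Exe. The cytokines Tnf and Il6, the adhesion molecule Icam1, the cyclooxygenase gene Ptgs2 and the NF-kB subunits Nfkb1 and Relb were not called. The inhibitors Nfkbia and Tnfaip3 and the nuclear IkB gene Nfkbiz were not called either. To be called, a gene needed a log2 fold change past 1 in either direction and an unadjusted limma p below 0.05, on values of log2(FPKM + 0.1), a scale that understates the fold change of low genes. Of the 18596 genes tested, 3.71% were called in either direction, 0.979% as higher and 2.73% as lower, so the share among the 10 genes rests on a single gene. With Benjamini-Hochberg adjustment, limma passed 0 of 18596 genes at 0.05, while 933 (5.02%) had an unadjusted p below 0.05, and limma voom on read equivalents also passed 0, with 732 at an unadjusted p below 0.05. Throughout, higher or lower is said of the direction of the values, and only Clec4e passed the call.

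The sequences in front of these genes are given first, because the kappaB element is the site that NF-kB dimers bind. The RefSeq promoter table (GRCm38.p6) matched 7 of the 10 genes, with 8 windows that run from 250 bases before to 50 bases after a start site, and Nfkbiz, Nfkb1 and Relb were not matched. The consensus kappaB motif was searched on both strands. It was found in 3 of the 8 windows (37.5%), each of another gene, and in 8.46% of all 32851 windows of the table. A match is a run of letters and not a measured binding site. The 250 bases before the start site are printed for the 3 genes with a match and for Clec4e, the called gene, which had none, 5′ to 3′ on the gene's strand and with the motif in capitals. They lie at chr12:55492648-55492897 (minus strand) for Nfkbia, at chr5:30012864-30013113 (plus strand) for Il6, at chr10:19015411-19015660 (minus strand) for Tnfaip3 and at chr6:123289872-123290121 (minus strand) for Clec4e.
Nfkbia: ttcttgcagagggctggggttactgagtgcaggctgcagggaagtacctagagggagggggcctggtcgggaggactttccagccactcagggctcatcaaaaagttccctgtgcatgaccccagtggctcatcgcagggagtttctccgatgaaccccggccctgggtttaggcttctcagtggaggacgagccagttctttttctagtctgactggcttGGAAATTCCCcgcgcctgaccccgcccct
Il6: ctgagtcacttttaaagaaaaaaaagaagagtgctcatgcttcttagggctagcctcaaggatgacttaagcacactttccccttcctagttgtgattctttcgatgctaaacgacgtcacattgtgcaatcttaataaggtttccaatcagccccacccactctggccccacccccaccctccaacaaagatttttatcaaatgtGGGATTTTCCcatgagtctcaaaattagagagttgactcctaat
Tnfaip3: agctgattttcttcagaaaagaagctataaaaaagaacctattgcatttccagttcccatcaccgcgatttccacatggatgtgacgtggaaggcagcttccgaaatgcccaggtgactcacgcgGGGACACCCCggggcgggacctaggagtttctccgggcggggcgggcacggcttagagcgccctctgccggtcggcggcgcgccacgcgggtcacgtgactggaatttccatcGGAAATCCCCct
Clec4e: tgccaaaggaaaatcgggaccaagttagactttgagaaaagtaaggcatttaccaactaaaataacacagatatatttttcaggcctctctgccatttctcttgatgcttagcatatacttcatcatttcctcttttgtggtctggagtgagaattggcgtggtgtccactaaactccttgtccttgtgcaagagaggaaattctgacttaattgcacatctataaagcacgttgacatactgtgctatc
The motif began 29 bases before the start site in Nfkbia, 44 bases before it in Il6, and 125 and 12 bases before it in Tnfaip3, which has a pair of matches. No match was found in the other window of Tnfaip3 or in those of Tnf, Ptgs2, Icam1 and Clec4e, which says only that these letters are not in them.

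The other sequence feature that these genes are known for is the AU-rich element of the 3′ UTR, which is bound by Zfp36 and related proteins and shortens the life of cytokine mRNAs. The nonamer TTATTTATT, counted on the transcript strand with overlapping copies included, was present in the annotated 3′ UTR of 3 of the 9 genes counted and of 7.66% of 21010 genes. For each gene the transcript with the longest annotated 3′ UTR was taken. For Nfkb1 and Il6 this was not the transcript with the highest mean FPKM in these libraries. Tnf held 5 copies, and Nfkbia and Ptgs2 held 1 each. The first site of each gene is shown with its flanks, with the nonamer or its overlapping copies in capitals.
Tnf: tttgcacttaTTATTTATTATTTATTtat
Nfkbia: ggaccacgttTTATTTATTgtgcttttga
Ptgs2: ctgaccatatTTATTTATTtatgtgaaga
The shorter ATTTA pentamer reached a median of 4.59 copies per kilobase of 3′ UTR over these 9 genes, and 1.35 over the genes with an annotated 3′ UTR of at least 100 bases.

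The levels of the 10 genes, as mean scaled FPKM over the 4 libraries, spread over a wide range. Nfkbia was the most abundant at 44.0 FPKM, above 92.2% of the genes tested, followed by Nfkb1 at 30.7, Clec4e at 18.0 and Nfkbiz at 12.2. Tnfaip3 at 4.78, Tnf at 4.43, Relb at 4.35 and Icam1 at 3.79 FPKM sat close together near the middle of the tested genes, and their ranges over the 4 libraries overlapped. Il6 at 0.786 and Ptgs2 at 0.323 FPKM were near the lower end. In that order, the ranges of Nfkbia and Nfkb1 touched, as did those of Nfkb1 and Clec4e, of Clec4e and Nfkbiz, and of Il6 and Ptgs2. The range of Nfkbiz lay wholly above that of Tnfaip3, and the range of Icam1 lay wholly above that of Il6. The plot of FPKM by library shows these levels.

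**Figure D1:**
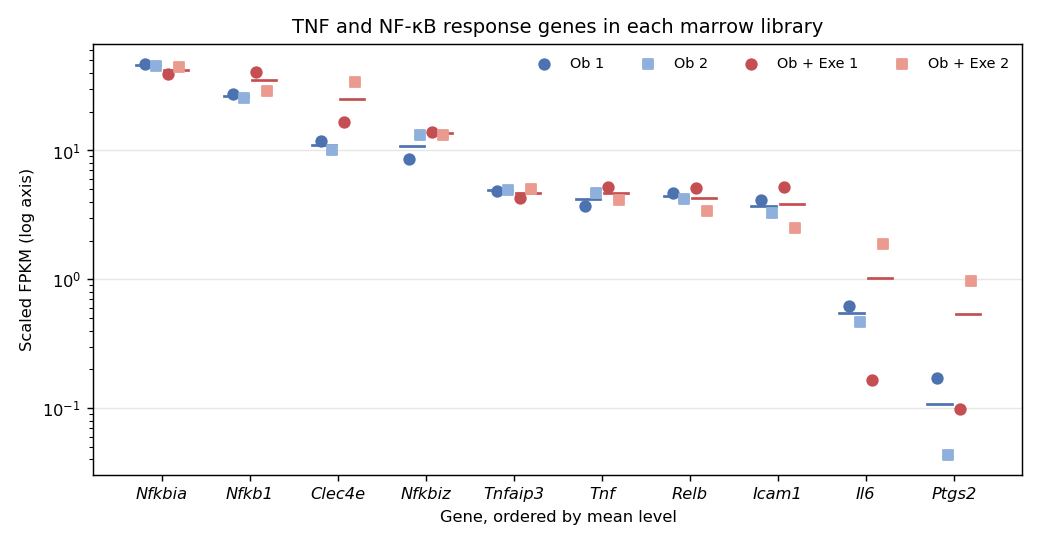
Scaled FPKM (log axis) of the 10 genes in the 4 libraries, with 1 point per library and a bar for each group mean (n = 2). The groups separate for Clec4e, Nfkb1 and Nfkbiz (higher in Ob + Exe) and for Nfkbia (lower), and Il6 and Ptgs2 spread most among the Ob + Exe libraries.

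Nfkbia and Tnfaip3 encode the inhibitors that NF-kB induces against itself. Nfkbia (ENSMUSG00000021025.8, chromosome 12, 55489410 to 55492647, GRCm38, minus strand) encodes IkB-alpha, which binds NF-kB and returns it to the cytoplasm. Its FPKM was 47.3 and 45.2 in Ob, against 39.3 and 44.2 in Ob + Exe. Both Ob + Exe values were below both Ob values, by a narrow margin. The log2 fold change was -0.15 (SE 0.20, 95% interval -0.63 to 0.34), with a limma adjusted p of 0.973. The difference was smaller than its SE, and a fall of up to 0.63 on the log2 scale is inside the interval. Nfkbia was covered by 3617 to 5047 read equivalents per library, where a read equivalent is 150 bases of coverage.

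Tnfaip3 (ENSMUSG00000019850.11, chromosome 10, 19000910 to 19015657, minus strand) encodes a ubiquitin-editing enzyme that ends signaling from the TNF receptor complex. It measured 4.82 and 4.98 FPKM in Ob, against 4.28 and 5.04 in Ob + Exe. The 4 libraries lay close together, and the Ob values fell between the Ob + Exe values. The log2 fold change was -0.07 (SE 0.28, 95% interval -0.77 to 0.62).

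Nfkbiz (ENSMUSG00000035356.17, chromosome 16, 55811375 to 55838899, minus strand) encodes IkB-zeta, a nuclear IkB protein that is induced by NF-kB and helps switch on secondary targets such as Il6. Its FPKM was 8.62 and 13.1 in Ob, against 13.9 and 13.2 in Ob + Exe. Ob replicate 2 lay just below the Ob + Exe libraries, and Ob replicate 1 lay apart below them. The log2 fold change was 0.35 (SE 0.28, 95% interval -0.35 to 1.05).

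The subunits were read from Nfkb1 and Relb. Nfkb1 (ENSMUSG00000028163.17, chromosome 3, 135584655 to 135691547, minus strand) encodes the precursor of a DNA-binding subunit of the canonical dimer. Its FPKM was 27.2 and 25.5 in Ob, against 40.9 and 29.1 in Ob + Exe. Both Ob + Exe libraries were higher, replicate 2 only slightly, and the log2 fold change was 0.39 (SE 0.24, 95% interval -0.21 to 0.99, limma adjusted p 0.960). In read equivalents scaled to library depth (RPM) the separation was gone, with 141 and 130 in Ob against 138 and 140 in Ob + Exe. The FPKM of a gene is a sum over transcripts divided by their lengths, and in Ob + Exe replicate 1 the reads of Nfkb1 had been assigned to shorter transcripts.

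Relb (ENSMUSG00000002983.17, chromosome 7, 19606217 to 19629438, minus strand) encodes the subunit of the non-canonical pathway, which serves lymphoid and dendritic cell development. It measured 4.71 and 4.17 FPKM in Ob, against 5.13 and 3.39 in Ob + Exe. The Ob + Exe libraries held both the highest and the lowest value, and the log2 fold change was -0.09 (SE 0.33, 95% interval -0.91 to 0.74).

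Tnf and Il6 are the cytokines among the 10 genes. Tnf (ENSMUSG00000024401.14, chromosome 17, 35199381 to 35202007, minus strand) measured 3.71 and 4.65 FPKM in Ob, against 5.21 and 4.16 in Ob + Exe, from 376 to 506 read equivalents per library. The groups overlapped, with means of 4.18 ± 0.663 (SD, n = 2) and 4.68 ± 0.739 (n = 2). The log2 fold change was 0.16 (SE 0.31, 95% interval -0.61 to 0.93), an interval that still allows a rise or a fall of over 0.6 on the log2 scale.

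Il6 (ENSMUSG00000025746.11, chromosome 5, 30013114 to 30019981, plus strand), a cytokine that acts on leukocytes, liver and bone, measured 0.623 and 0.464 FPKM in Ob, against 0.165 and 1.89 in Ob + Exe. The Ob + Exe libraries again held both extremes, with 23 read equivalents in replicate 1 and 114 in replicate 2. The Ob libraries had 62 and 45. Scaled to library depth (RPM), Il6 was at 1.16 and 0.895 in Ob, against 0.511 and 2.44 in Ob + Exe, a narrower spread than in FPKM. In Ob + Exe replicate 2, the short transcript Il6-202 (651 bases) held 73.9% of the FPKM, and it was listed at 0 in the other libraries. The log2 fold change of 0.19 (SE 1.02, 95% interval -2.33 to 2.70) carries no direction. Without Ob + Exe replicate 2 it was -1.28, and without Ob + Exe replicate 1 it was 1.64, which then passed the call.

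Ptgs2 and Icam1 are induced effectors. Ptgs2 (ENSMUSG00000032487.8, chromosome 1, 150100031 to 150108227, plus strand) encodes the inducible cyclooxygenase that feeds prostaglandin synthesis. It was at 0.172 and 0.0431 FPKM in Ob, against 0.0987 and 0.977 in Ob + Exe. Ob + Exe replicate 2 stood alone with 240 read equivalents, against 52, 13 and 26 in the other libraries, and the highest value was 22.6 times the lowest. The log2 fold change was 1.23 (SE 1.04, 95% interval -1.35 to 3.81), larger than that of Clec4e but not called. It was 0.01 without Ob + Exe replicate 2, and it was 2.45 and called without Ob + Exe replicate 1.

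Icam1 (ENSMUSG00000037405.8, chromosome 9, 21015985 to 21028817, plus strand) encodes a ligand of leukocyte beta-2 integrins on endothelium and myeloid cells. Its FPKM was 4.16 and 3.25 in Ob, against 5.22 and 2.51 in Ob + Exe. The Ob values lay between the Ob + Exe values, and the log2 fold change was -0.02 (SE 0.44, 95% interval -1.10 to 1.06). Gm47079 overlaps Icam1 on the other strand with a mean of 1.47 FPKM, and the library kit does not mark strand, so reads of this pair cannot be told apart.

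Clec4e (ENSMUSG00000030142.10, chromosome 6, 123281789 to 123289870, minus strand) was the called gene. Mincle recognizes mycobacterial glycolipids and material from dying cells, and its mRNA is induced by TNF and Toll-like receptor signals. The FPKM was 11.9 and 10.01 in Ob, against 16.5 and 33.8 in Ob + Exe. Both Ob + Exe libraries lay above both Ob libraries, and replicate 2 lay far above replicate 1. The mean was 2.29 times higher, with a log2 fold change of 1.11 (SE 0.38, 95% interval 0.18 to 2.03), an unadjusted limma p of 0.0272 and a Benjamini-Hochberg adjusted p of 0.960. In read equivalents scaled to library depth (RPM), Clec4e was at 44.4 and 44.0 in Ob, against 85.6 and 124 in Ob + Exe, so the Ob libraries lay close together and the separation was kept. The call was lost without Ob replicate 1 (log2 fold change 1.22), without Ob replicate 2 (0.97) and without Ob + Exe replicate 2 (0.58), each of which leaves 1 group with a single library, and it was kept without Ob + Exe replicate 1 (1.62).

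**Figure D2:**
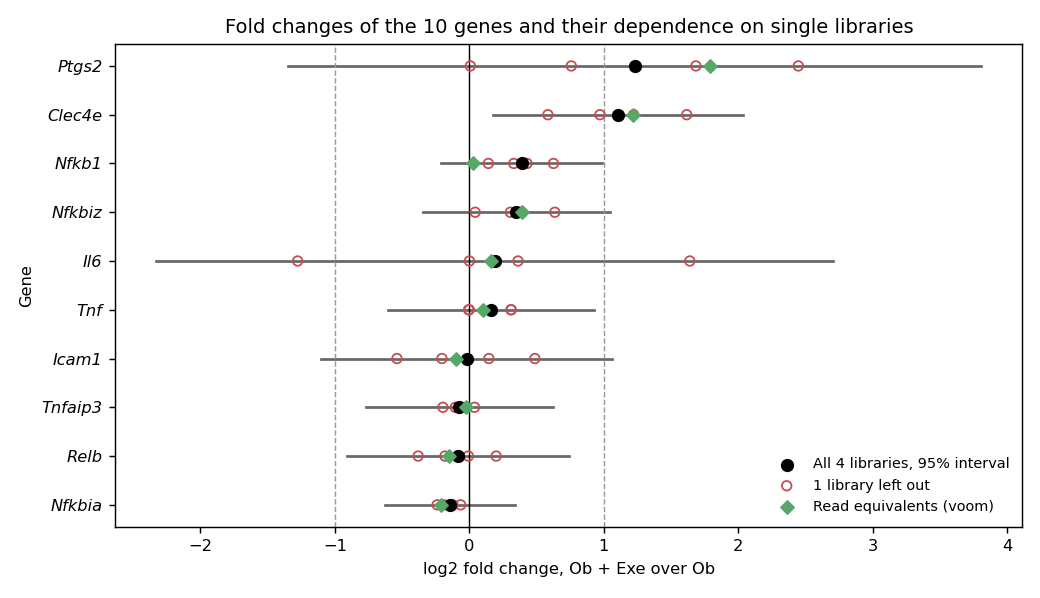
Log2 fold change of each of the 10 genes, Ob + Exe over Ob, with 95% limma intervals as bars, open circles for the value with 1 library left out, diamonds for limma voom on read equivalents and dashed lines at the fold threshold. Clec4e is the gene whose interval (0.18 to 2.03) lies above 0, and the intervals of Il6 (-2.33 to 2.70) and Ptgs2 (-1.35 to 3.81) are the widest.

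Set side by side, 6 of the 10 log2 fold changes were above 0 and their median was 0.17, while the median over all 18596 genes tested was -0.02. In scaled FPKM, the 2 groups did not overlap for 4 of the 10 genes, 3 of them higher in Ob + Exe (Clec4e, Nfkb1 and Nfkbiz) and 1 lower (Nfkbia). Before scaling, Nfkb1 and Nfkbiz overlapped, and Tnfaip3 was lower in Ob + Exe without overlap, so the count was 3. Over all genes tested 32.7% did not overlap, 14% as higher and 18.7% as lower, so 4 of 10 is close to the background. The exact permutation test of 2 libraries against 2 cannot go below a two-sided p of 0.333, and no such p is given for single genes. For 8 of the 10 genes the gap between the replicates was larger in Ob + Exe than in Ob, as it was for 64.8% of all genes. The median gap of the 10 genes on the log2 scale was 0.28 between the Ob libraries and 0.54 between the Ob + Exe libraries, against 0.33 and 0.52 over all genes. The highest of the 4 values was in Ob + Exe replicate 1 for 5 genes, in Ob + Exe replicate 2 for 4 and in Ob replicate 1 for 1.

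The FPKM of a gene depends on which annotated transcripts StringTie assigned the reads to, and for several of these genes that assignment changed from library to library. For Nfkb1, the transcript Nfkb1-201 (25 exons, 4117 bases) held 95.02% and 84.4% of the FPKM in Ob and 96.0% in Ob + Exe replicate 2, but was listed at 0 in Ob + Exe replicate 1. There the FPKM went to Nfkb1-203 (52.0%, 12 exons, 2354 bases), to the retained-intron transcript Nfkb1-202 (25.9%) and to Nfkb1-206 (18.6%). For Nfkbiz, Nfkbiz-204 (12 exons) held 97.6%, 99.1% and 95.01% in the first 3 libraries and was listed at 0 in Ob + Exe replicate 2, where Nfkbiz-201 (14 exons) held 98.2%. Both switches concern a single library, so neither separates the groups. A leading transcript listed at 0 in at least 1 library was seen for 3 of the 10 genes (Nfkb1, Nfkbiz and Il6) and for 19.98% of the 13231 tested genes with more than 1 transcript. Among the 9699 such genes with at least 1 FPKM in every library it was 10.7%.

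The call of Clec4e also rests on the sum over transcripts. The coding transcript Clec4e-201 (6 exons, 2518 bases) carried 8.67 and 4.33 FPKM in Ob, against 2.63 and 17.3 in Ob + Exe before scaling, and so overlapped between the groups. It made up 71.0% and 41.9% of the gene's FPKM in Ob, against 16.0% and 54.1% in Ob + Exe. Most of the rest was in transcripts annotated with a retained intron, of which Clec4e-205 reached 46.7% in Ob + Exe replicate 1. With the most abundant transcript of each gene alone, the log2 fold change of Clec4e was 0.19 and the call was lost.

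Relb divided differently in every library. The transcript Relb-202 held 43.1% and 27.0% in Ob, against 87.8% and 71.9% in Ob + Exe, while the retained-intron transcript Relb-208 held 70.4% in Ob replicate 2 and Relb-210, annotated for nonsense-mediated decay, held 48.6% in Ob replicate 1. The group means of its gene sum were close, at 4.44 FPKM in Ob and 4.26 in Ob + Exe. As given above, the Ob + Exe libraries held both the highest and the lowest sum. Tnfaip3-201 held 89.4% and 97.5% in Ob, against 68.0% and 92.5% in Ob + Exe, with 32.0% in the retained-intron transcript Tnfaip3-205 in Ob + Exe replicate 1. Tnf and Ptgs2 had all of their FPKM in 1 transcript, and Nfkbia-201 and Icam1-201 led in every library.

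**Figure D3:**
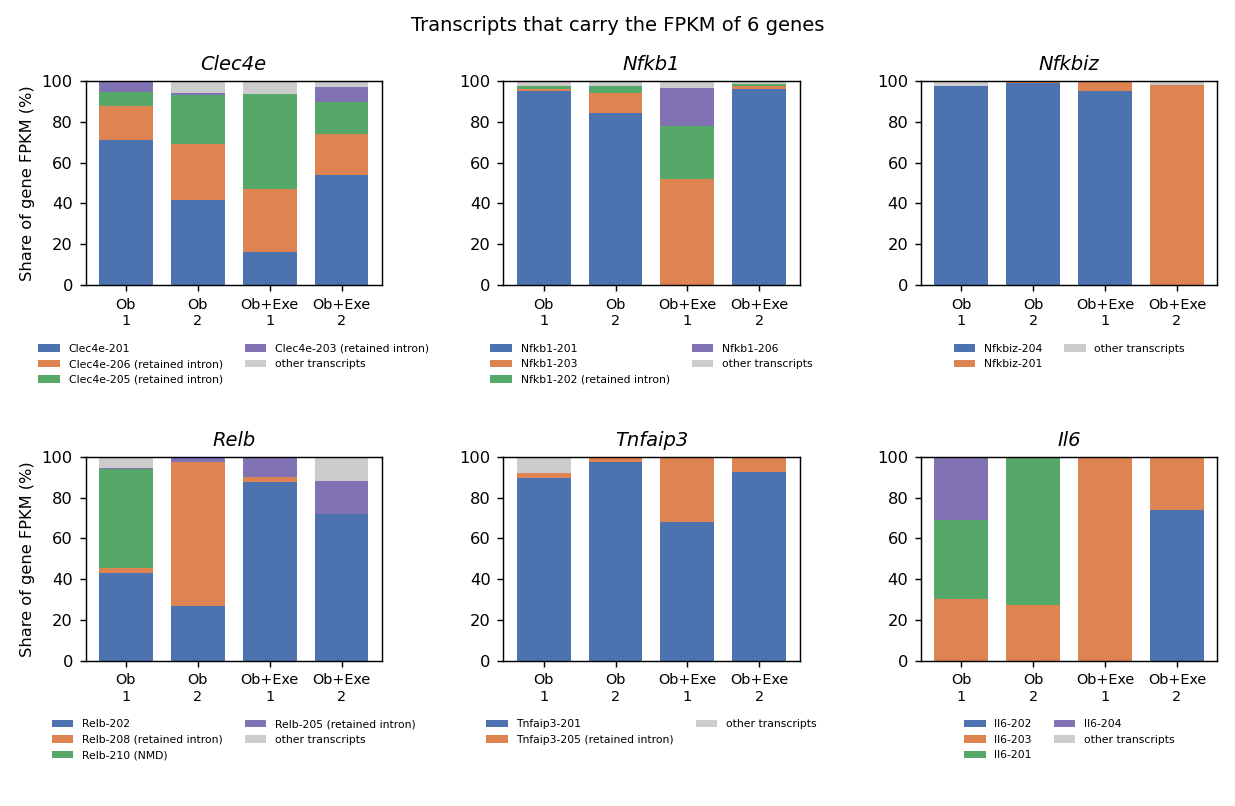
Share of each gene's FPKM (%, stacked to 100) held by its annotated transcripts in the 4 libraries, for 6 of the 10 genes. Nfkb1-201 is listed at 0 in Ob + Exe replicate 1 and Nfkbiz-204 in Ob + Exe replicate 2, and the coding Clec4e-201 ranges from 16.0% to 71.0%.

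The rest of the pathway was read from 13 lists of related genes that were written by hand. They include a list of immediate early and stress genes, Fos among them, which were listed for their response to tissue handling. Single values given in parentheses after a gene are log2 fold changes. Over the 225 distinct genes of these lists that were tested, without the 10 genes themselves, 8 were called higher and 0 lower in Ob + Exe with limma, and 12 had an unadjusted p under 0.05. That is 3.56% called in either direction, all of them higher, beside 3.71% of all genes. Of all genes, 0.979% were called higher, and 5.02% had an unadjusted limma p under 0.05. The share called in either direction was thus close to the background. The 8 were Il1b, Tlr2, Acod1, Hdc, Clec4d, Osm, Cntf and Fos, and limma voom on read equivalents called these 8 and no others. Of the 13 lists, 9 held 0 calls with limma and with voom, and their genes passed an unadjusted p below 0.05 in 0 cases with limma and in 2 with voom. The median log2 fold change of the 225 genes was 0.09. The earlier results of these data were known when the lists were written, so the count is a description.

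The receptor end of the pathway showed small differences. Of 20 genes for TNF receptors and their adaptors, 14 had a log2 fold change above 0, the median was 0.10 and 0 were called. Tnfrsf1a, the receptor through which TNF mainly signals, measured 37.8 and 28.5 FPKM in Ob, against 38.6 and 44.7 in Ob + Exe (log2 fold change 0.34). Tnfrsf1b, the receptor of leukocytes, measured 18.6 and 18.0 in Ob, against 21.6 and 20.7 in Ob + Exe (0.21). Both separated the groups without passing the test, and the necroptosis effector Mlkl was lower in both Ob + Exe libraries (-0.35). Of the 6 genes for TNF processing and release, 4 were above 0 and 0 were called, with log2 fold changes of 0.09 for Adam17, the protease that sheds TNF, of 0.33 for its partner Frmd8 and of -0.83 for its inhibitor Timp3.

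In the IKK complex and its upstream kinases, 9 of 12 genes were above 0, the median was 0.03, 0 were called and 0 separated the groups. The catalytic kinases Chuk and Ikbkb had log2 fold changes of 0.06 and 0.21, the scaffold Ikbkg had -0.18 and the TAK1 partner Tab1 had 0.33. Ikbkg overlaps the more abundant G6pdx on the other strand. Among the 11 NF-kB subunits and IkB proteins, 7 were above 0, the median was 0.15 and 0 were called. The canonical subunit Rela measured 24.8 and 26.3 FPKM in Ob, against 29.8 and 26.9 in Ob + Exe (0.15), and Rel, the subunit of activated leukocytes, measured 4.78 and 4.47 in Ob, against 5.79 and 7.25 in Ob + Exe (0.48). Nfkb2, the partner of Relb, had 0.04, and the nuclear IkB protein Bcl3 had 0.18. The inhibitor Nfkbib was lower in both Ob + Exe libraries (-0.43), and it overlaps Sirt2 on the other strand.

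Of 19 feedback inhibitors of NF-kB, 11 were above 0, the median was 0.03 and 0 were called. Nfkbid, a nuclear IkB protein, had a log2 fold change of 0.39, Nfkbie had -0.21, the Tnfaip3 partner Tnip1 had 0.30 and Socs1, an inhibitor of cytokine signaling, had -0.62. Of 12 factors that control the decay of cytokine mRNAs, 5 were above 0 and 0 were called, with a median of -0.03. Zfp36, which binds the AU-rich element printed above, measured 22.2 and 23.2 FPKM in Ob, against 18.5 and 26.8 in Ob + Exe (-0.03). The RNase gene Zc3h12a had 0.03, Khsrp had -0.38, and Arid5a, which stabilizes Il6 mRNA, had -0.74.

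Of the 8 genes called from these lists, 4 were in the list of NF-kB response genes. Of 75 NF-kB response genes, 63 were tested, 38 of these were above 0, the median was 0.05, and 4 were called, all higher. Il1b, the interleukin-1 beta gene, measured 24.2 and 25.7 FPKM in Ob, against 57.5 and 68.8 in Ob + Exe, which gave 1.33 on the log2 scale (SE 0.21, unadjusted limma p 0.000771). Tlr2, the receptor for bacterial lipoproteins, measured 9.33 and 8.64 in Ob, against 18.8 and 19.1 in Ob + Exe (1.07). Acod1, which makes itaconate in activated macrophages, measured 0.748 and 0.637 in Ob, against 1.74 and 3.19 in Ob + Exe (1.64). Hdc, the histamine-forming enzyme of basophils and myeloid cells, measured 43.6 and 31.8 in Ob, against 69.9 and 94.9 in Ob + Exe (1.13). In all 4 genes both Ob + Exe libraries lay above both Ob libraries, whereas Tnf, Il6 and Icam1 overlapped. The call of Acod1 was lost without Ob replicate 1 (1.73), Ob replicate 2 (1.53) or Ob + Exe replicate 2 (1.21), and that of Hdc without Ob replicate 2 (0.89) or Ob + Exe replicate 2 (0.90). Tlr2 lost its call without scaling (0.99).

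Genes of the receptor complex and signaling chain around Clec4e were read next. Of 12 genes of the Mincle pathway, 9 were above 0, the median over the list was 0.31, and Clec4e and Clec4d were called. Clec4d, a neighbour of Clec4e in the same gene cluster whose product pairs with Mincle, measured 29.1 and 24.3 FPKM in Ob, against 43.9 and 89.4 in Ob + Exe (1.23, SE 0.36). Its pattern over the libraries was that of Clec4e, with replicate 2 well above replicate 1 in Ob + Exe, and its call was lost without Ob replicate 1 (1.35), Ob replicate 2 (1.09) or Ob + Exe replicate 2 (0.71). It was also lost with no intensity trend and with the most abundant transcript only (1.08). Clec7a, the beta-glucan receptor Dectin-1, measured 42.0 and 45.6 in Ob, against 70.2 and 76.9 in Ob + Exe, with a log2 fold change of 0.75 that was under the call's threshold at an unadjusted limma p of 0.00911. The shared signaling chain Fcer1g measured 317 and 249 in Ob, against 239 and 309 in Ob + Exe (-0.05), and the adaptor Card9 had 0.06. Clec4e, Clec4d and Clec7a had larger log2 fold changes than Fcer1g and Card9, though this contrast itself was not tested.

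Around Il6, 16 of 18 genes of its cytokine family and signaling were tested, 11 were above 0 and 2 were called. Osm, oncostatin M, a cytokine of neutrophils and macrophages that acts on bone, measured 5.37 and 4.86 FPKM in Ob, against 12.8 and 11.7 in Ob + Exe (1.24). Cntf measured 0.415 and 0.397 in Ob, against 2.59 and 3.34 in Ob + Exe (2.59). Its annotated span overlaps Zfp91, so reads of that gene may be counted in these values. Socs3, the feedback inhibitor of Il6 signaling, measured 3.29 and 3.33 in Ob, against 6.78 and 5.48 in Ob + Exe, with 0.86 and an unadjusted limma p of 0.0271, under the fold threshold. The receptor genes Il6ra and Il6st had 0.45 and -0.12. Osm and, with the limit of its overlap, Cntf were called in this list, while Il6 itself spread over both directions.

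Around Ptgs2, 15 of 22 genes of prostaglandin and leukotriene synthesis and reception were above 0, the median was 0.26 and 0 were called. The prostaglandin E synthase Ptges measured 2.08 and 3.76 FPKM in Ob, against 4.48 and 3.95 in Ob + Exe (0.57), and the receptor Ptger4 had 0.17. Tbxas1, thromboxane synthase, was lower in both Ob + Exe libraries (-0.82), and Pla2g7 had 0.47. Around Icam1, 6 of 13 genes were above 0, with a median of -0.02 and 0 called. Its integrin receptor chain Itgb2 had 0.17, Vcam1 had 0.14, Itga4 had -0.54, and the endothelial and platelet gene Pecam1 measured 12.1 and 11.5 in Ob, against 8.09 and 8.06 in Ob + Exe (-0.55, unadjusted limma p 0.0565).

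In the TNF superfamily of ligands and receptors, 32 of 37 genes were tested, 16 were above 0, the median was -0.03 and 0 were called. Of these 32 genes, 12 were lower in Ob + Exe without overlap and 4 were higher, where 18.7% of all genes tested were lower and 14% were higher in this way. Lta and Ltb, the lymphotoxin genes next to Tnf, had log2 fold changes of -0.92 (Lta, at or below 0.287 FPKM in every library) and 0.20. Tnfrsf17, a receptor of plasma cells, had -1.76 at a level of at most 0.994 FPKM, and Tnfrsf25, a receptor of lymphocytes, had 0.87.

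**Figure D4:**
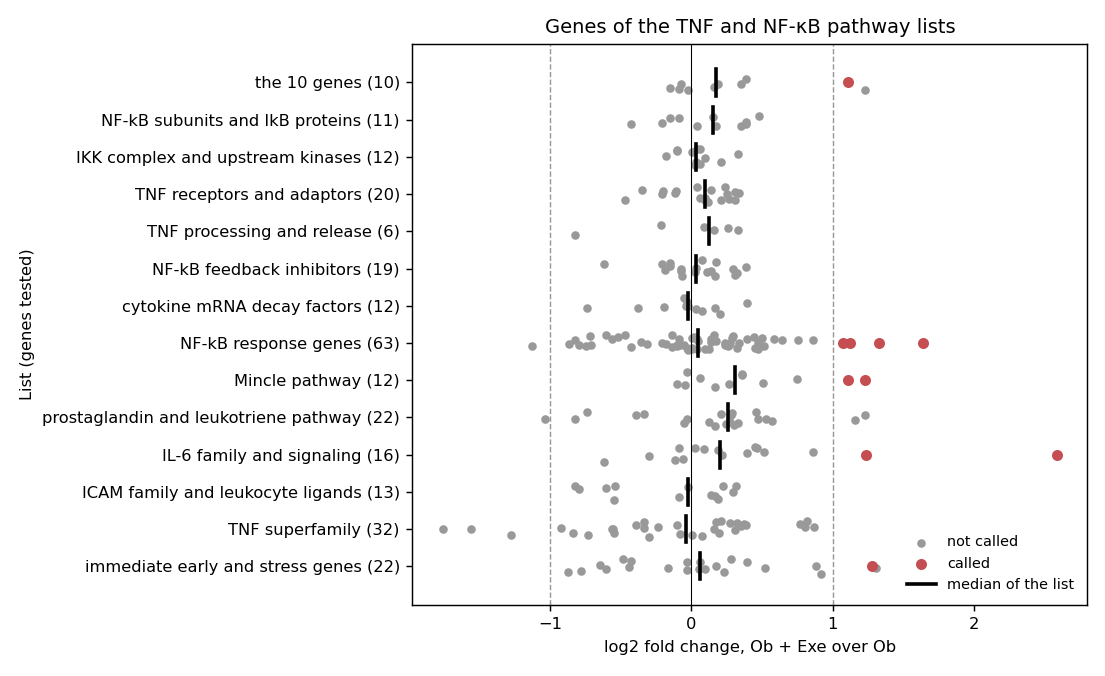
Log2 fold change, Ob + Exe over Ob, of every tested gene in each pathway list, 1 point per gene, with the called genes marked and a bar for the median of the list. The called genes lie in the lists of NF-kB response genes, the Mincle pathway, the IL-6 family, and immediate early and stress genes, all above 1, and medians lie between -0.03 and 0.31.

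The make-up of the libraries was read from marker lists. The labels call the material bone marrow but also carry the entries mesenchymal stem cells and fibroblast. Neutrophil and erythroid markers dominated, with a summed FPKM of 23117 to 57686 for 13 mature neutrophil markers and of 54558 to 81678 for 9 erythroid markers, while 11 markers of mesenchymal stroma and fibroblasts summed to 118 to 176. In bulk marrow, fewer cells of a type and less RNA per cell cannot be told apart. Mature neutrophil markers summed to 40619 and 23117 in Ob, against 30373 and 57686 in Ob + Exe. All 13 had a log2 fold change above 0, with a median of 0.53, and 2 were called, Il1r2 and Clec4d. Ob + Exe replicate 2, the library with the highest neutrophil sum, was also the highest for Clec4e, Il6, Ptgs2 and, by a small margin, Tnfaip3. It was the highest for Clec4d too, which is itself 1 of the 13 markers. Of the 10 genes, 5 were highest in Ob + Exe replicate 1. Ob replicate 1 had a higher neutrophil sum than Ob + Exe replicate 1 but a lower Clec4e (11.9 against 16.5 FPKM). A link between neutrophil content and these values was not tested.

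Monocyte markers summed to 3324 and 2360 in Ob, against 3089 and 4672 in Ob + Exe, with 5 of 9 above 0 and 0 called. Macrophage markers summed to 172 and 178 in Ob, against 174 and 185 in Ob + Exe. B cell markers summed to 260 and 273 in Ob, against 205 and 163 in Ob + Exe, with 9 of 10 below 0 and 2 called lower (Cd79a and Igll1). Megakaryocyte markers summed to 482 and 353 in Ob, against 393 and 143 in Ob + Exe. All 9 megakaryocyte markers were below 0 (median -0.91), and Gp1ba and Gp5 were called lower. All 8 endothelial markers, Pecam1 among them, were below 0 (median -0.50), 6 of them without overlap and 0 called. Over all genes tested, 18.7% were lower without overlap, 2.73% were called lower and 0.979% were called higher. Of 9 eosinophil, basophil and mast cell markers, 7 were above 0 and Prg2 was called higher. Of 7 adipocyte markers tested, 5 were above 0 and Retn was called higher, and all 5 skeletal muscle markers tested were above 0 (median 0.96), with Acta1 called higher. Called lower were also the osteoblast marker Bglap2, the stroma marker Col1a1 and the dendritic cell marker Ly6d. No marker of these lists was at 0 in all 4 libraries. The part of these shifts in the values of Clec4e and the other genes was not tested.

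**Figure D5:**
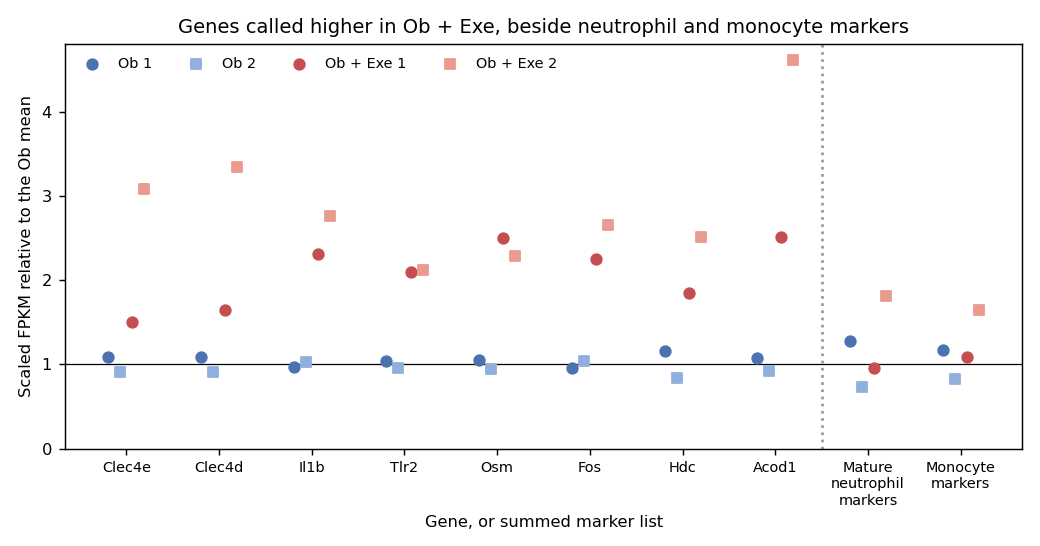
Scaled FPKM of Clec4e and 7 genes called from the lists in each library as a ratio to the Ob mean (linear axis from 0, line at 1). The same ratio is drawn for the summed neutrophil and monocyte markers, and the called gene Cntf is not drawn. Both Ob + Exe libraries lie above both Ob libraries for each gene, which the call on these same values favors. The summed neutrophil markers range from 23117 to 57686 FPKM, with Ob + Exe replicate 2 highest.

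Genes that respond within minutes to the handling or dissection of tissue share inducers with NF-kB targets and were listed for that reason. Of 22 such immediate early and stress genes, 12 were above 0, the median was 0.06 and 1 was called. An unadjusted limma p under 0.05 was reached by 3 of the 22, beside 5.02% of all genes tested. Without overlap, 5 were higher and 5 lower in Ob + Exe, beside 14% and 18.7% of all genes. Log2 fold changes in the list ran from -0.87 to 1.31, and the gene at 1.31 was not called. Fos measured 5.82 and 6.30 FPKM in Ob, against 13.6 and 16.1 in Ob + Exe (1.28, SE 0.24). Klf4 was lower in both Ob + Exe libraries, at 9.39 and 10.3 in Ob, against 5.21 and 5.47 in Ob + Exe (-0.87, unadjusted limma p 0.0137). Egr1 and Jun, which were named after their values were seen, had 0.06 and 0.10. The part of handling in the other values was not tested.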

How the data were processed

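Bone marrow was collected by centrifugation and sequenced as paired 150-base reads from poly-A libraries whose kit does not mark strand. The authors trimmed reads with fastp, removed rRNA reads, aligned to GRCm38 with HISAT2, filtered with SAMtools and estimated transcript levels with StringTie on GENCODE vM25. They deposited, for each library, the coverage of every transcript (a signal not normalized for depth) and its FPKM, which is normalized for length and aligned bases. The authors tested with DESeq2 on counts, which were not used here.

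Transcript FPKM were summed to 55401 genes, libraries were scaled by median-of-ratios factors (0.949 to 1.03, from genes averaging at least 1 FPKM), and the 18596 genes averaging at least 0.1 FPKM were tested as log2(FPKM + 0.1) with limma 3.58.1 in R 4.3.3 (eBayes with an intensity trend, 2 residual and 3.73 prior degrees of freedom). Calls needed a log2 fold change past 1 in either direction with an unadjusted p below 0.05, and Benjamini-Hochberg adjustment ran over all tested genes. All 10 genes passed the minimum. Depth was 44310505 to 53038186 read equivalents of 150 bases, which are estimates and not counts. Transcript types came from GENCODE vM21. The 3′ UTR of 1 of the 10 genes is not reported here. Tables were handled in Python 3.11.15 with pandas 2.3.3 and drawn with matplotlib 3.10.9. The fit was tested on simulated data. The labels and methods do not tie replicate numbers to animals, litters or days, so no block was used.

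The 10 genes and the gene lists were chosen with earlier results of these data known. Named beside the 10 were a set list of pathway genes and every called gene of the lists. In each list, the 2 genes with the smallest limma p were also named. Il1r2, Egr1, Jun and the called markers were named after their values were seen. Alternatives changed the minimum, the pseudocount, the scaling, the test, the trend, the block, the transcripts summed and the libraries.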

Additional observations from a re-analysis of the deposited data

How the results depend on the processing

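Adjusted p values stayed above 0.05 for the 10 genes and the other named genes in every alternative tried. The count of called genes among the 10 went from 1 to 0 with no minimum, with no intensity trend and with the most abundant transcript only, and ranged from 0 to 3 (Clec4e, Il6 and Ptgs2, without Ob + Exe replicate 1) when 1 library was left out, where a group rests on a single library that is assumed to vary like the others. The count over all genes went from 690 to 267 with a minimum mean FPKM of 1, 224 with a pseudocount of 1, 450 with limma voom on read equivalents, 1061 without the trend and 365 with protein-coding genes only (added after seeing the data), and from 601 to 1853 (without Ob + Exe replicate 2) with 1 library left out. Genes of the 10 that did not overlap went from 4 to 2 with the most abundant transcript, and to 5 to 9 with 1 library left out, where fewer values make separation easier. Pathway calls went from 8 to 13 with the most abundant transcript and to 5 (without Ob replicate 2) to 16 (without Ob + Exe replicate 2). The median log2 fold change of the 10 was 0.070 with a minimum of 1, 0.067 with voom, 0.0053 with the most abundant transcript and 0.090 to 0.26 with 1 library left out. Without scaling and with quantile normalization, 3 of the 10 genes did not overlap between the groups. The cause of these changes was not tested.

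Directions reversed with the most abundant transcript only for Nfkb1 (-3.86), Nfkbiz (-3.22), Relb (1.04), Adam17 (-2.39), Ikbkb (-2.74), Nfkbid (-0.55), Nfkbie (0.67), Socs1 (0.034), Tnip1 (-3.17) and Zc3h12a (-0.27). They reversed with quantile normalization for Icam1 (0.017), without scaling for Card9 (-0.018), Chuk (-0.023), Nfkb2 (-0.038) and Zc3h12a (-0.046), and with voom for Zc3h12a (-0.23). With 1 library left out, the sign was not stable for Tnf (-0.0058 to 0.31), Tnfaip3 (-0.20 to 0.038), Relb (-0.38 to 0.20), Il6 (-1.28 to 1.64), Icam1 (-0.54 to 0.49), Adam17 (-0.042 to 0.20), Card9 (-0.34 to 0.46), Chuk (-0.093 to 0.20), Fcer1g (-0.24 to 0.14), Ikbkb (-0.10 to 0.51), Ikbkg (-0.79 to 0.42), Il6st (-0.32 to 0.081), Itga4 (-1.09 to 0.0010), Itgb2 (-0.18 to 0.51), Nfkb2 (-0.16 to 0.23), Nfkbie (-0.59 to 0.16), Tab1 (-0.19 to 0.85), Tnip1 (-0.24 to 0.83), Zc3h12a (-0.37 to 0.43) and Zfp36 (-0.30 to 0.24).

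The replicate numbers share only a number. With the replicate block, 776 genes were called and Clec4e stayed the called gene of the 10. The differences between replicates correlated at -0.106 across genes between the groups, and with the crossed pairing, added after seeing the data, 782 genes were called. With 2 libraries per group, the intervals of Il6 and Ptgs2, at 13 to 240 read equivalents, allow large changes in either direction.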
